A study of Mus musculus with 7 samples.

Results

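The genes that activate, inactivate, carry, import and sense thyroid hormone were examined in islets of pregnant mice with less prolactin receptor. They are the 9 genes DIO1, DIO2, DIO3, THRA, THRB, SLC16A10, SLCO1C1, TTR and THRSP, found by name, ignoring case, among the 34082 gene names of the table of all mice. DIO1 was put on the list because its values were higher in one group of mice, so its difference between the groups is described here and not tested. The others joined it for their place in thyroid hormone biology. Of the 9 genes, 6 had a mean of at least 0.5 TPM (transcript abundance corrected for transcript length and scaled to a fixed total, which can be compared between genes), and 3, namely DIO2, DIO3 and SLCO1C1, fell below that limit and were left out of the test across genes.

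Islet RNA came from 7 C57BL/6 females on day 15 of pregnancy, 4 βPrlR+/- mice and 3 Prlr+/- mice, mated at 3 to 4 months of age by the labels, with 1 library per mouse. In βPrlR+/- mice a floxed prolactin receptor allele is deleted by Pdx1CreER, a tamoxifen-activated Cre driven by the Pdx1 promoter, which is active in β-cells and in some other pancreatic endocrine cells. In Prlr+/- mice an allele is missing from every tissue, and these mice carried no Cre and received no tamoxifen, so that genotype, Cre and tamoxifen cannot be told apart. By the design text of the deposited series the β-cell deletion is homozygous and by the study's text heterozygous. The sample labels name only the tissue of the deletion, and the samples are titled CkoWt, a term left unexplained. The comparison has no wild-type group and no batch is named, so a value can be called higher or lower only between both mutants. Nothing says whether the mice of a group shared a litter or a day. RNA was taken after a night in culture from islets picked by hand.

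Prolactin receptor mRNA itself ranged from 38.4 to 55.7 scaled TPM in βPrlR+/- islets and from 35.1 to 51.1 in Prlr+/- islets, where scaled TPM is TPM divided by a factor that evens out the typical gene between mice. Both groups carry a receptor deletion, and the β-cell deletion removes an exon and not the whole transcript, so these overlapping values do not check the labels. The insulin genes took 46.1% to 53.2% of all TPM in βPrlR+/- and 54.0% to 58.9% in Prlr+/- mice, with no overlap, and their part in the differences in unscaled TPM was not tested. Glucagon mRNA ranged from 14600 to 22100 scaled TPM. Of 7 markers of the thyroid gland, 1 reached 0.5 TPM, PAX8 at 0.534, and their sum was 0.883 to 1.17 in βPrlR+/- and 0.999 to 1.34 scaled TPM in Prlr+/- mice, with thyroglobulin, its defining product, at 0.00186 on average. Of 8 hepatocyte markers, APOA1 (8.52) and TAT (8.99) reached that limit, while ALB was at 0.167 and APOB at 0.0388. Of 8 adipocyte markers, FABP4 (73.7) and LIPE (4.16) reached it, while ADIPOQ was at 0.00952 and LEP at 0.000877. Acinar markers summed to 1750 to 15900 in βPrlR+/- and 4960 to 13200 scaled TPM in Prlr+/- mice. Across the 14840 genes tested with limma, 10 passed an adjusted p of 0.05 between the groups, which is 0.0674% of them, 9 lower in Prlr+/- islets (0.0606%) and 1 higher (0.00674%).

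The thyroid gland releases mostly thyroxine, which circulates bound to carriers such as transthyretin and enters cells through membrane transporters. Inside the cell, the type 1 and type 2 deiodinases can remove an outer-ring iodine to give the active hormone triiodothyronine. The type 3 enzyme removes an inner-ring iodine and inactivates thyroxine and triiodothyronine. Triiodothyronine binds the receptors THRA and THRB, which sit on DNA with retinoid X receptors and switch target genes such as THRSP. In rodent β-cells, thyroid hormone is known for promoting maturation through the transcription factor MAFA. Liver, kidney and thyroid are the organs best known for type 1 deiodinase.

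All 3 deiodinases are selenoproteins, in which a TGA codon that would normally stop translation is read as selenocysteine, the residue at the centre of the active site. The codon and the 30 bases on each side of it are shown because they mark what the 3 enzymes share. They were read from the GENCODE transcripts of GRCm38 and are written 5′ to 3′ with the selenocysteine codon in capitals. The DIO1 stretch is codon 126 of 257 in exon 2 of 4, at chr4:107297670-107297732 on the minus strand. That of DIO2 is codon 130 of 266 in exon 2 of 2, at chr12:90729793-90729855 on the minus strand. That of DIO3 is codon 170 of 304 in its only exon, at chr12:110279709-110279771 on the plus strand.
DIO1: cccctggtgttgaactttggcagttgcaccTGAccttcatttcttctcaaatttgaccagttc
DIO2: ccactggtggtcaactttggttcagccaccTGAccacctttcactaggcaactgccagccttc
DIO3: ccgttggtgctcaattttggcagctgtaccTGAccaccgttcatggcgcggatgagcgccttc
Over these 63 bases, DIO1 shares 36 with DIO2 and 37 with DIO3, and DIO2 shares 41 with DIO3. DIO2 has a further annotated selenocysteine codon at position 263, close to its end.

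In whole islets the 9 genes differed widely in level. Mean scaled TPM over the 7 mice was 719 for TTR, 65.1 for SLC16A10, 46.6 for DIO1, 26.0 for THRA, 3.8 for THRSP and 2.65 for THRB. It was 0.015 for SLCO1C1, 0.0126 for DIO2 and 0.00785 for DIO3. TTR ranked 52nd of the 14840 genes tested, SLC16A10 909th, DIO1 1357th, THRA 2653rd, THRSP 9914th and THRB 10919th. Some neighbours in this order could not be separated by their spread. SLC16A10 was above DIO1 in 5 of 7 mice, SLCO1C1 above DIO2 in 4 and DIO2 above DIO3 in 6. DIO1 exceeded THRA, and THRSP exceeded THRB, within each of the 7 mice, although the ranges over all mice overlapped. The plot of levels shows 3 tiers, with TTR alone on top, 5 genes between 2.0 and 86.7 scaled TPM, and 3 genes at or below 0.0335.

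**Figure D1:**
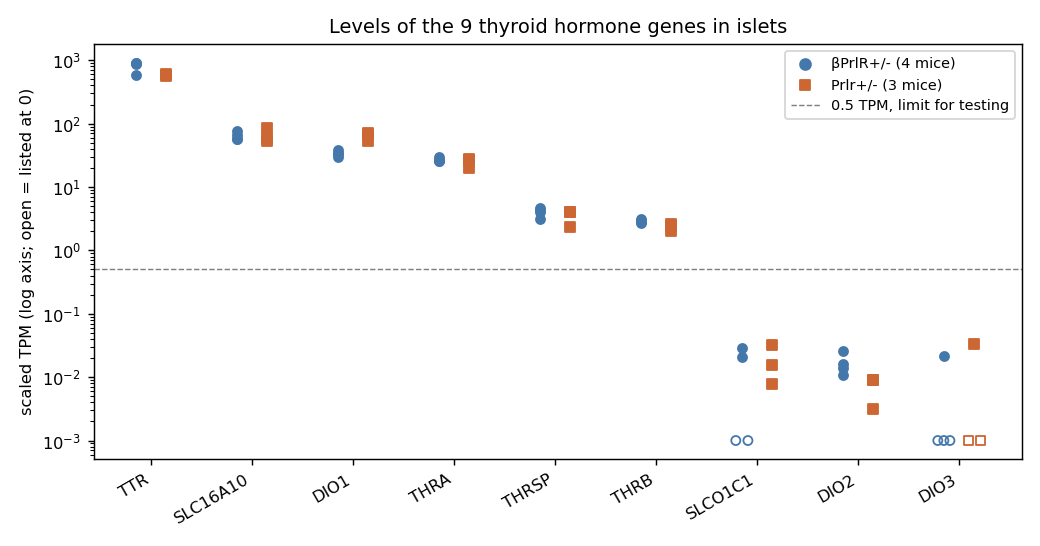
Scaled TPM (log axis) of the 9 genes in each of 7 mice, as circles for βPrlR+/- and squares for Prlr+/- mice, with open symbols at the bottom for values listed at 0 and a dashed line at 0.5 TPM, the limit for testing. DIO1 is the deiodinase that islets express, with DIO2 and DIO3 at or below 0.0335 in every mouse.

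Of the deiodinases, islets expressed DIO1 at a level above that of 90.9% of the genes tested. Its scaled TPM was 29.4, 33.5, 33.9 and 39.0 in βPrlR+/- mice 1 to 4, as against 71.1, 52.5 and 66.7 in Prlr+/- mice 1 to 3. Every Prlr+/- mouse was above every βPrlR+/- mouse, with the closest pair at 39.0 and 52.5. The mean of 63.5 ± 9.71 (SD, n = 3) in Prlr+/- mice stood over one of 34.0 ± 3.94 (SD, n = 4), a ratio of 1.87 and a log2 fold change of 0.88 (SE 0.13) on the scale of log2(scaled TPM + 1), on which every log2 fold change here is given for Prlr+/- over βPrlR+/- mice. In deposited TPM, before scaling, the values were 27.8 to 41.5 against 52.2 to 68.2, and these also did not overlap. The log2 fold change lay between 0.73 and 1.01 in all alternative settings, which include leaving out each mouse in turn. These values chose the gene and support nothing further. Such a separation upward occurred in 273 of 14840 genes, 1.84%. Since whole islets were used, more cells that express DIO1 and more DIO1 mRNA per cell cannot be told apart.

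DIO2 and DIO3 were barely detectable. DIO2 was 0.0262, 0.0109, 0.0137 and 0.016 scaled TPM for βPrlR+/- islets and 0.00892, 0.00309 and 0.00908 for Prlr+/- islets. The Prlr+/- mice were all lower, but the exact two-sided permutation test, in which 2 of the 35 splits of the mice gave as large a difference, gave p = 0.0571. DIO3 was listed at 0 in 5 of the 7 mice and read 0.0215 in βPrlR+/- mouse 1 and 0.0335 in Prlr+/- mouse 3, with p = 0.714 in the same exact test. TPM does not say how many reads stand behind values this low, so no fold change is given. Exact tests of this kind were run for each of the 9 genes except DIO1.

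Among the other selenoprotein genes, none passed the test between the groups. This family was added after the values had been seen and was defined only by an annotated selenocysteine codon in GENCODE, which gave 24 genes including the 3 deiodinases. Besides DIO1, 20 were tested, of which 15 were higher and 5 lower in Prlr+/- islets by sign, with a median log2 fold change of 0.05 and a range of -0.20 to 0.36. None passed an adjusted p of 0.05 in limma, as against 0.0674% of all genes tested. The count with an unadjusted p below 0.05 was 1, the glutathione peroxidase GPX2, at 10.3 ± 1.65 (SD, n = 4) against 13.5 ± 2.17 scaled TPM (SD, n = 3). The secreted glutathione peroxidase GPX3 was the only other selenoprotein gene tested whose groups did not overlap, at 264 ± 28.8 against 229 ± 3.04 scaled TPM, lower in Prlr+/- islets, with a limma adjusted p of 1.0. Both counts of 1 in 20 are close to the shares over all genes tested, 4.52% for an unadjusted p below 0.05 and 4.95% for groups that did not overlap. By level, 10 of the 24 genes were above DIO1, among them SELENOP, the selenium carrier, at 391 scaled TPM.

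Few genes separate the groups, 4.95% of all those tested, and none of the tested chromosomal neighbours of DIO1 did. Of the 5 named genes on each side in the reference order that were also in the table, 6 were tested. TMEM59, a Golgi membrane protein gene, averaged 268 ± 18.5 scaled TPM (SD, n = 4) in βPrlR+/- and 264 ± 21.1 (SD, n = 3) in Prlr+/- islets. YIPF1 had the highest log2 fold change, 0.16, and LRRC42 the lowest, -0.08, with HSPB11 and TCEANC2 at -0.06, TMEM59 at -0.03 and NDC1, a nuclear pore gene, at 0.06. Of the 4 that were not tested, GLIS1 was 0.425 ± 0.086 (SD, n = 4) in βPrlR+/- and 0.274 ± 0.0204 scaled TPM (SD, n = 3) in Prlr+/- islets, lower in every Prlr+/- mouse, as were 3.11% of all genes tested. LDLRAD1, DMRTB1 and Gm12907 averaged at most 0.0558 in either group. These are descriptions with no test.

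The genes whose log2 values followed DIO1 most closely over the 7 mice were Gm4544 and Gm42020 (Pearson r = 0.963 each), SLC25A25, a mitochondrial ATP-Mg/phosphate carrier gene (0.962), ROGDI (0.96) and Mir7052 (0.958). These correlations share the split between the groups that chose DIO1 and carry no p. Of the 14839 other genes, 20 had r of at least 0.9. SLC25A25 ranged from 16.4 to 17.5 scaled TPM in βPrlR+/- and from 17.8 to 19.6 in Prlr+/- mice, and ROGDI from 58.4 to 59.0 and from 62.7 to 67.0. Gm42020 averaged 0.446 and 0.774 scaled TPM. Mir7052, a row named for a microRNA gene in poly(A) RNA, had 0.801 to 3.26 scaled TPM in Prlr+/- mice and was listed at 0 in each of the 4 βPrlR+/- mice. Gm42020 and Mir7052 averaged below 0.5 in βPrlR+/- mice and reached the limit for testing through their Prlr+/- values. That limit favours such genes in this ranking.

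TTR encodes transthyretin, the plasma carrier of thyroxine and of retinol-binding protein, which islet endocrine cells also make. Its scaled TPM was 897, 910, 874 and 590 in βPrlR+/- mice 1 to 4, as against 574, 600 and 585 in Prlr+/- mice 1 to 3. βPrlR+/- mice 1 to 3 were far above the Prlr+/- mice, whereas mouse 4 lay among them. The means were 818 ± 152 (SD, n = 4) and 586 ± 13.3 (SD, n = 3), 28.3% lower in Prlr+/- islets, with a log2 fold change of -0.46 (SE 0.16, 95% interval -0.84 to -0.08). TTR did not pass the test, with p = 0.0243 and adjusted p = 0.966 in limma and p = 0.0857 in the exact permutation test, where 3 of 35 splits were as large. Without βPrlR+/- mouse 4 the log2 fold change was -0.61 with an adjusted p of 0.222. In deposited TPM the groups did not overlap, at 628 to 972 against 516 to 597. Without scaling, the median log2 fold change over all genes was -0.118, and the share of all genes that separated was not counted.

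Glucagon mRNA, the defining product of α-cells, was arranged in much the same way, at 20300, 17700, 22100 and 14600 scaled TPM in βPrlR+/- mice 1 to 4 and at 14800, 14600 and 15100 in the Prlr+/- mice. The 4 mice low in TTR were the 4 low in Gcg, as the bars by mouse show. Of a list of 10 α-cell markers, Gcg included, 9 were tested and all 9 were lower by sign in Prlr+/- islets, with a median log2 fold change of -0.18, none past an adjusted p of 0.05, and none at 0 in all mice. An unadjusted p below 0.05 in limma (4.52% over all genes) and groups that did not overlap (4.95%) were each seen for 1 of them, GC. It was 38.2 ± 2.78 (SD, n = 4) in βPrlR+/- and 29.9 ± 1.31 scaled TPM (SD, n = 3) in Prlr+/- islets. The summed level of the α-cell markers, mostly glucagon, was 14700 to 22300 scaled TPM in βPrlR+/- and 14700 to 15200 in Prlr+/- mice. Of the β-cell markers 9 of 10 were higher by sign, with sums of 452000 to 599000 against 583000 to 715000. The part of cell composition in the TTR values was not tested.

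**Figure D2:**
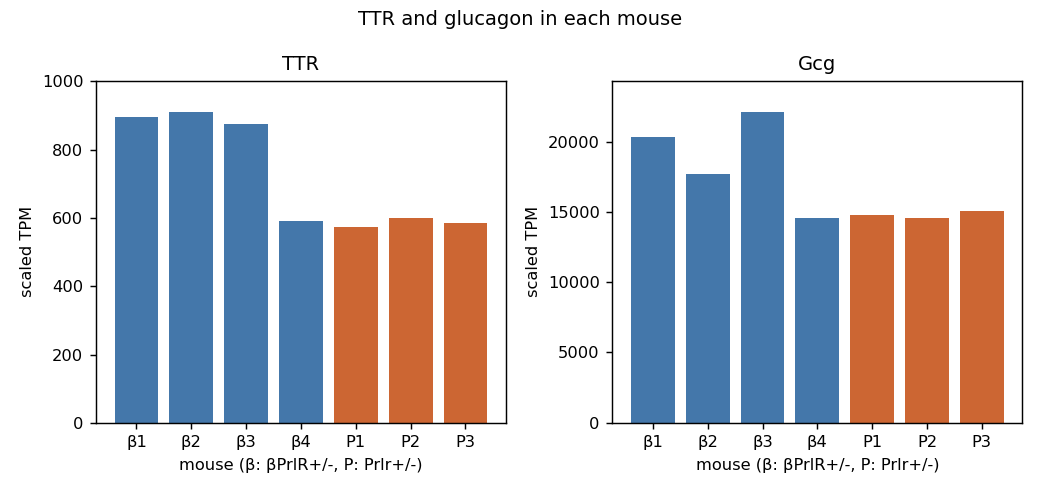
Bars give scaled TPM of TTR and of Gcg in each mouse, βPrlR+/- mice β1 to β4 in blue and Prlr+/- mice P1 to P3 in orange. In both panels the bar of βPrlR+/- mouse 4, at 590 for TTR and 14600 for Gcg, is at the height of the Prlr+/- bars.

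Among the transporters, SLC16A10, a monocarboxylate transporter family member that carries aromatic amino acids and thyroid hormones across the membrane, was well expressed and showed no difference beyond the spread of the mice. It measured 66.4, 56.3, 76.1 and 57.6 scaled TPM for βPrlR+/- islets and 52.7, 86.7 and 60.2 for Prlr+/- islets. Both the lowest and the highest of the 7 values were in Prlr+/- mice. The log2 fold change was 0.03 (SE 0.18, 95% interval -0.39 to 0.45), with an adjusted p of 1.0 in limma and p = 0.857 in the exact permutation test. This sign turned, to -0.11, in deposited TPM without scaling. Of its 4 RefSeq transcripts, NM_001114332.1 with 512 codons made up 71.5% to 84.7% of the gene's TPM and the predicted XM_006512863.2 12.4% to 26.6%. The shorter NM_028247.4, with 320 codons, made up 1.79% to 3.06%.

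SLCO1C1, the organic anion transporter known for bringing thyroxine across the blood-brain barrier, was at most 0.032 scaled TPM. It was listed at 0 in βPrlR+/- mice 1 and 3. Both of its coding transcripts were at 0 in all 7 mice, and the whole signal was assigned to a predicted non-coding transcript, so these values show no coding SLCO1C1 mRNA. The exact permutation test between the groups gave p = 0.543.

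The receptors were led by THRA, which measured 25.5, 30.1, 26.6 and 25.8 scaled TPM for βPrlR+/- islets and 27.2, 20.1 and 27.0 for Prlr+/- islets. The values overlapped, and Prlr+/- mouse 2 was the lowest of all. The log2 fold change was -0.13 (SE 0.12, 95% interval -0.40 to 0.14), with an adjusted p of 1.0 in limma and p = 0.543 in the exact permutation test. Without Prlr+/- mouse 2 it was 0.0068, and in deposited TPM without scaling -0.27. NR1D1, which lies antisense to the end of THRA, was 22.9 ± 2.69 (SD, n = 4) and 23.4 ± 6.12 scaled TPM (SD, n = 3). The libraries keep strand, but whether the assignment of reads used it is not given in the sources used here.

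The 2 coding THRA transcripts make different proteins, because the shorter reads through into the rest of exon 9 where the longer splices to exon 10. They share 370 codons and then part. The protein of NM_178060.4, with 410 codons, binds triiodothyronine, whereas that of NM_001313983.1, with 492 codons, has another end and does not. The stretch where they part is shown because it decides which receptor is made. The 30 shared bases, chr11:98764376-98764405 on the plus strand of GRCm38, are in lower case, and the 45 bases particular to each transcript are in capitals. Those of NM_001313983.1 are at chr11:98768157-98768201 and those of NM_178060.4 at chr11:98764406-98764450.
NM_001313983.1: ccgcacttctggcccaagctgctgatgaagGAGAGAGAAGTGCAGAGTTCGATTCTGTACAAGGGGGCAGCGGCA
NM_178060.4: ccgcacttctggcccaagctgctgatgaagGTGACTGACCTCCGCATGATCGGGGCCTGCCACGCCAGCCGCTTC
By the assigned TPM, in which the part of NR1D1 reads was not tested, islets expressed mostly the form that does not bind hormone. It made up 76.2% ± 2.74 of THRA TPM in βPrlR+/- mice (SD, n = 4) and 76.6% ± 6.02 in Prlr+/- mice (SD, n = 3), with a range of 69.6% to 80.4% over the 7 mice. The exact permutation test of the share between the groups gave p = 0.943. The hormone-binding form measured 5.3, 7.48, 5.93 and 6.93 scaled TPM for βPrlR+/- islets and 5.52, 3.95 and 8.19 for Prlr+/- islets. Its lowest and its highest value were both in Prlr+/- mice.

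THRB, which encodes the other hormone-binding receptor, had somewhat lower values in Prlr+/- islets. Its scaled TPM was 2.71, 3.08, 2.8 and 2.88 for βPrlR+/- islets and 2.63, 2.0 and 2.43 for Prlr+/- islets. The groups did not overlap, with 2.71 against 2.63 as the closest pair, and their means were 2.87 ± 0.159 (SD, n = 4) and 2.35 ± 0.319 (SD, n = 3). The log2 fold change was -0.21 (SE 0.0859, 95% interval -0.41 to -0.01). The exact permutation test gave p = 0.0286, the smallest that 35 splits allow, whereas limma gave p = 0.0423 and an adjusted p of 1.0, so THRB did not pass the test across genes. Of all genes tested, 4.95% had groups that did not overlap, and in 3.11% the Prlr+/- mice were the lower ones. Without Prlr+/- mouse 2 the log2 fold change was -0.13. Endothelial markers were also lower by sign in Prlr+/- islets, 8 of 8, with a median log2 fold change of -0.23, none past an adjusted p of 0.05 in limma, 5 with an unadjusted p below 0.05 (4.52% over all genes), 3 with groups that did not overlap (4.95% over all genes), none at 0 in all mice, and sums of 156 to 193 against 131 to 165 scaled TPM. For markers of δ- and PP-cells the median was -0.22 on the same scale with 5 of 6 lower and sums of 18200 to 21400 against 15800 to 17500 scaled TPM. For markers of neurons and glia it was -0.20, with 4 of 6 lower and sums of 50.6 to 58.3 against 45.5 to 55.2. Of these 6, 3 had an unadjusted p below 0.05 in limma and groups that did not overlap, in both directions. ELAVL4 was higher in Prlr+/- islets (log2 fold change 0.27), whereas GAP43 (-0.36) and S100B (-0.32) were lower. Below the limit for testing, CHAT (0.239 against 0.112 scaled TPM) and ELAVL3 (0.268 against 0.148) were lower in every Prlr+/- mouse. DBH and SOX10, also below it, had overlapping groups. The median of the α-cell markers was -0.18. It was -0.16 for fibroblast and pericyte markers (5 of 6 lower), -0.44 for adipocyte markers (2 of 2) and -0.53 for hepatocyte markers (1 of 2). Medians lay above 0 for β-cell (0.30), acinar (0.11), duct (0.05), and macrophage and leukocyte markers (0.04), and for the 1 thyroid gland marker tested (0.14). The part of these cell types in the THRB values was not tested. In deposited TPM, without scaling, the log2 fold change of THRB was -0.32.

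The THRB signal was spread over 16 of 19 RefSeq transcripts. NM_001113417.1, with 461 codons, had the highest mean and measured 1.2, 1.64, 1.15 and 1.47 scaled TPM for βPrlR+/- islets and 0.000453, 0.929 and 1.45 for Prlr+/- islets. Its share of the gene was 0.0172% in Prlr+/- mouse 1 and reached 59.9% in Prlr+/- mouse 3. In mouse 1 the predicted XM_006517970.3 and XM_006517967.3 were each at their highest of the 7 mice, at 0.996 and 0.604, as against at most 0.419 and 0.0721 in the others. The transcripts overlap in sequence and their level is low, so how THRB divides among them is uncertain, and the gene sum is the firmer value. NM_009380.3, with 475 codons, the form known from the pituitary and the retina, was at most 0.0583.

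**Figure D3:**
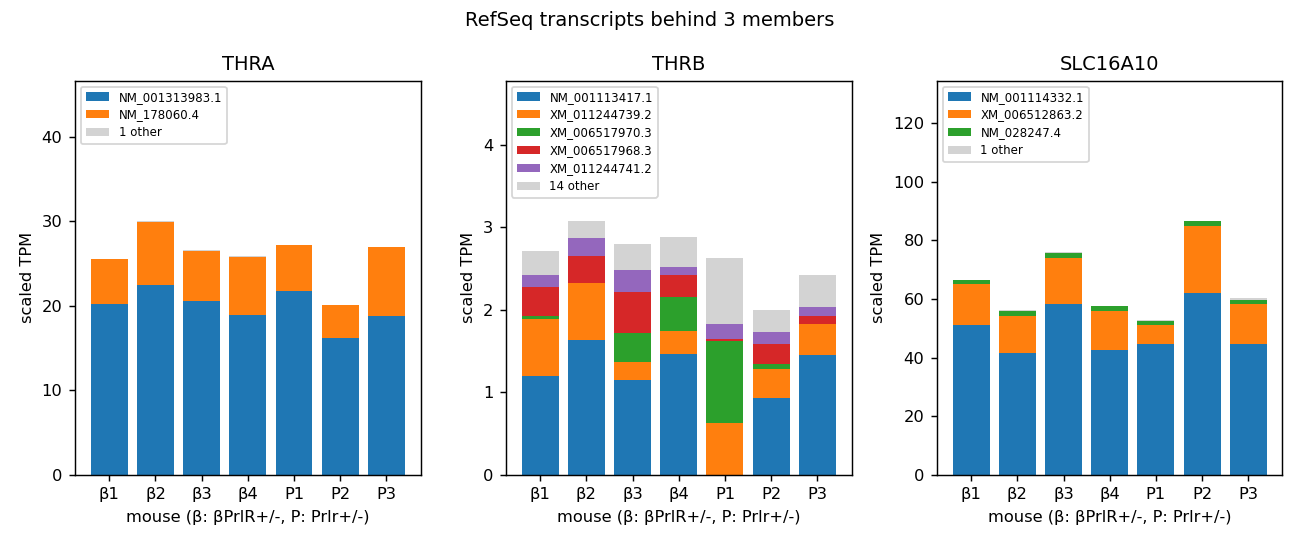
Stacked bars give scaled TPM of the RefSeq transcripts of THRA, THRB and SLC16A10 in βPrlR+/- mice β1 to β4 and Prlr+/- mice P1 to P3, with the transcripts of lowest mean joined in grey. The split of THRA keeps the same order in all 7 mice, whereas in the THRB panel NM_001113417.1 is missing from the bar of Prlr+/- mouse 1.

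THRSP, a gene that responds to thyroid hormone and promotes fatty acid synthesis in liver and fat, measured 3.12, 4.07, 4.28 and 4.65 scaled TPM for βPrlR+/- islets and 4.03, 2.34 and 4.1 for Prlr+/- islets. Prlr+/- mice 1 and 3 lay within the range of the βPrlR+/- mice, and mouse 2 lay below it. The log2 fold change was -0.18 (SE 0.18, 95% interval -0.60 to 0.23), with an adjusted p of 1.0 in limma and p = 0.457 in the exact permutation test. Without Prlr+/- mouse 2 it was 0.0192, and in deposited TPM without scaling -0.30. That mouse had the lowest THRA, THRB and THRSP and the highest SLC16A10 of the 7, and the lowest DIO1 of its group.

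**Figure D4:**
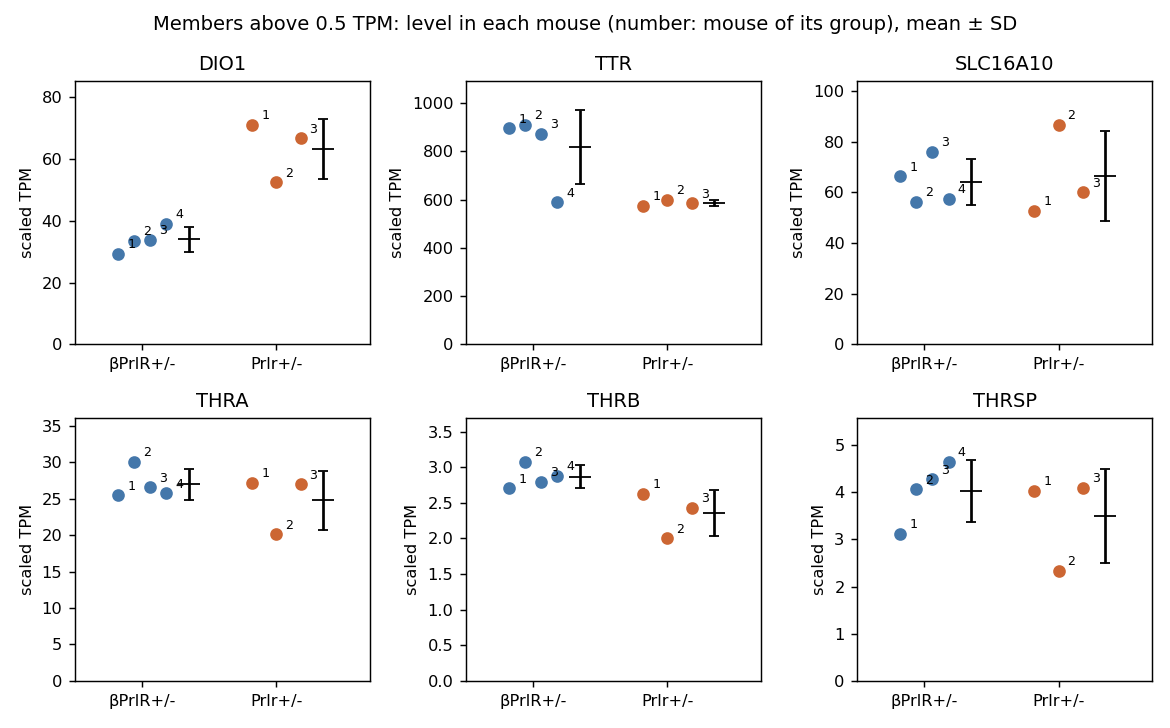
Scaled TPM of the 6 genes above 0.5 TPM, with each point a mouse numbered within its group and the bar beside the points giving mean ± SD for 4 βPrlR+/- (blue) and 3 Prlr+/- mice (orange). The groups are apart for DIO1 and, narrowly, for THRB, and βPrlR+/- mouse 4 sits at the Prlr+/- level for TTR.

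Beside DIO1, then, 5 of the 9 genes were tested, and 4 of them were lower and 1 higher in Prlr+/- islets by sign, where 48.3% of all genes were lower. None passed an adjusted p of 0.05 in limma, as against 0.0674% of all genes tested. TTR and THRB had an unadjusted p below 0.05, as did 671 of all genes tested, or 4.52%.

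Another 65 genes of thyroid hormone biology were examined in 6 lists, of which 64 were in the table and 53 were tested. None passed an adjusted p of 0.05 in limma in any list, as against 0.0674% of all genes tested. By sign 27 were lower and 26 higher, and the median log2 fold change was 0.00, against 0.004 over all genes. An unadjusted p below 0.05 was reached by 2 of them, 3.77%, as against 4.52% of all genes tested, and groups that did not overlap by 1, 1.89%, as against 4.95%.

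Other transporters included SLC3A2, the heavy chain that brings amino acid exchangers to the membrane, at 88.4 ± 6.21 (SD, n = 4) and 101 ± 12.9 scaled TPM (SD, n = 3), and its partners SLC7A8, averaging 49.4, and SLC7A5, averaging 42.9. Of the 7 transporters tested, 3 were lower and 4 higher by sign. SLCO2B1, named after its values were seen, was 2.02 ± 0.31 (SD, n = 4) and 1.39 ± 0.204 scaled TPM (SD, n = 3), and its groups did not overlap. Its log2 fold change of -0.33 had an adjusted p of 0.935 in limma.

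Of the other carriers, SERPINA7, thyroxine-binding globulin, averaged 7.24 scaled TPM and CRYM, which holds triiodothyronine in the cytosol, 0.685. The lowest and the highest SERPINA7 values were 3.31 in Prlr+/- mouse 2 and 11.7 in βPrlR+/- mice 2 and 4, and the groups overlapped. Albumin averaged 0.167 and was not tested.

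Of the receptor partners and cofactors, 14 were tested, of which 9 were lower and 5 higher by sign, with log2 fold changes of -0.41 to 0.04 and a median of -0.03. The corepressor NCOR1 averaged 30.8 ± 2.2 (SD, n = 4) and 30.9 ± 2.34 scaled TPM (SD, n = 3), TBL1X of the same complex 33.1 over all mice, and its deacetylase HDAC3 25.8. The lowest log2 fold change of this list was that of the retinoid X receptor RXRA, named after its values were seen, at 20.2 ± 5.64 (SD, n = 4) and 14.8 ± 3.21 scaled TPM (SD, n = 3), with an adjusted p of 1.0 in limma.

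Genes that make selenoproteins possible had log2 fold changes of -0.19 to 0.13 among 9 tested. SELENOP was 414 ± 35.6 (SD, n = 4) and 362 ± 33.2 scaled TPM (SD, n = 3), with overlapping groups, and SCLY, which recovers selenium from selenocysteine, and SEPHS2, which makes the selenium donor, averaged 61.9 and 20.1. In the list of deiodinase turnover and hormone breakdown, the enzymes that attach or remove ubiquitin were the most abundant, with MARCH6 at 40.0, USP33 at 39.5 and UBE2G2 at 36.9 scaled TPM on average. Its 7 tested genes had log2 fold changes of -0.31 to 0.11.

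Among 14 known target genes tested, 7 were lower and 7 higher by sign. The calcium pump ATP2A2 averaged 278 scaled TPM and was 257 ± 33.7 (SD, n = 4) and 307 ± 53.9 (SD, n = 3), and the transcription factor KLF9, a common early target, 41.4 ± 5.22 and 40.2 ± 4.51. MAFA, a target in β-cells that also defines mature β-cells, had the highest log2 fold change of all 53 genes. It measured 188, 86.5, 114 and 87.2 scaled TPM for βPrlR+/- islets and 139, 209 and 218 for Prlr+/- islets. Prlr+/- mice 2 and 3 were above every βPrlR+/- mouse, but Prlr+/- mouse 1 was below βPrlR+/- mouse 1. The log2 fold change of 0.71 (SE 0.293) had a limma adjusted p of 1.0, with an unadjusted p of 0.0445. Of the 10 other β-cell markers examined, 9 were also higher by sign in Prlr+/- islets, with a median log2 fold change of 0.30, none past an adjusted p of 0.05 and none with an unadjusted p below 0.05 in limma. Among them were the mature β-cell hormone UCN3 at 0.57, the glucose transporter SLC2A2 at 0.46, the transcription factor NKX6-1 at 0.38 and the incretin receptor GLP1R at 0.36, all 4 with overlapping groups, and named after their values were seen. The part of β-cell content in the MAFA values was not tested.

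**Figure D5:**
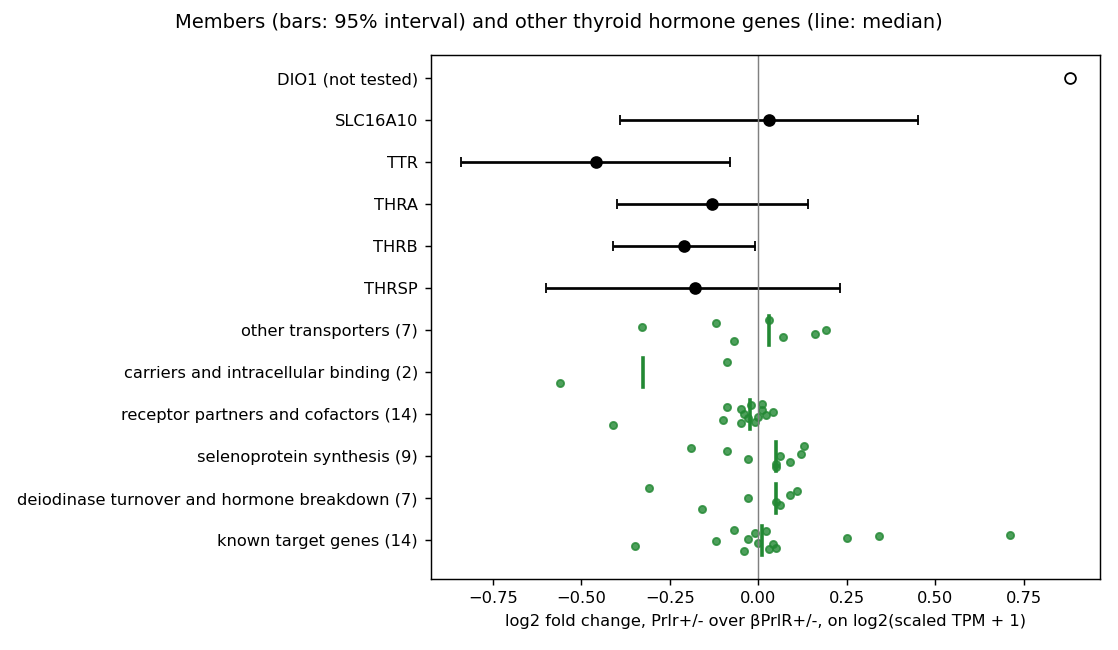
Log2 fold changes of Prlr+/- over βPrlR+/- islets on log2(scaled TPM + 1), with 95% intervals for 5 genes tested and an open symbol without interval for DIO1, and below them 1 green point per other thyroid hormone gene tested in 6 lists, with a line at each list's median. The place of DIO1 follows from how it was chosen, the intervals of TTR and THRB lie below 0 without passing the adjusted test, and the list medians lie between -0.33 and 0.05.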

How the data were processed

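Islet RNA of 4 βPrlR+/- and 3 Prlr+/- mice was made into poly(A), strand-specific libraries and assigned by the authors to mouse RefSeq transcripts with Kallisto 0.42.4. The study calls the deposited values FPKM, but they sum to 1000000 per mouse (1000001 in βPrlR+/- mouse 4) and were treated as TPM. Each of the 34082 gene values equalled the sum of its transcripts, with a largest relative gap of 5.09e-15. No genome build is given in the sources used here. TPM keeps no depth, so no counting interval is given. Samples were grouped by the labels, and the numbers of the mice follow label order.

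The members and lists were chosen with earlier results of these data known. TPM were divided by median-ratio size factors (0.8818 to 1.1084). The test across genes was limma 3.58.1 (R 4.3.3) on log2(scaled TPM + 1) of genes with a mean of at least 0.5 TPM, with a mean-dependent variance and Benjamini-Hochberg adjustment over 14840 genes, checked on simulated data. Single values were compared with two-sided exact permutation tests over 35 splits. P-values measure the spread between these mice only. A transcript-level fit covered 28553 transcripts.

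Named genes are the 9 members, the 3 most abundant of each list of other thyroid hormone genes and any past the threshold, the 5 most like DIO1 and its 5 neighbours on each side. Markers of cell types, the prolactin receptor and NR1D1 are named as checks, and these, the selenoprotein genes and others so marked were picked after the values were seen. Neighbours came from RefSeq on GRCm38.p6 and sequences from GENCODE M21 (GRCm38), matched by RefSeq transcript. Scaling, pseudocount, filter and test were varied, each mouse was left out in turn, and the most abundant transcript of each member was fitted in place of the gene. Figures were drawn with matplotlib 3.10.9 in Python 3.11.15 with numpy 2.4.6 and pandas 2.3.3.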

Additional observations from a re-analysis of the deposited data

Results flagged for a closer look

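Single mice far from the rest of their group were sought among the 4 βPrlR+/- mice for all 9 genes, by the gap of the extreme mouse to its nearest neighbour as a share of the group's range, with Dixon's critical value as the limit. This limit is passed by chance in about 1 of 20 groups, and 2 of 9 passed it, TTR and DIO3. For TTR the share was 0.886, since βPrlR+/- mouse 4 measured 590 scaled TPM and the other three 874 to 910. For DIO3 it was 1.0, because βPrlR+/- mouse 1 measured 0.0215 scaled TPM and the other three were listed at 0. With all other mice at 0 this share is 1.0 whatever the remaining value is, so it says nothing about how far that mouse lies from its group.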

How the results depend on the processing

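DIO1 stayed higher in Prlr+/- islets in all 15 alternatives, at 0.73 to 1.01, and TTR (-0.61 to -0.40, adjusted p 0.222 to 1.0) and THRB (-0.32 to -0.13 by gene, adjusted p 0.59 to 1.0) stayed lower in log2 fold change. With its most abundant transcript alone, whose share is uncertain, THRB was at -0.49 (SE 0.292). In all 14 alternatives that gave a count, none of the other members and none of the 53 other thyroid hormone genes passed the threshold. In the main fit 0.0674% of all genes passed it, so a count of 0 in lists this small says little. The number of genes past it was 10, and became 18 with a pseudocount of 0.1, 4 with no filter on low values, and 2 to 12 with a mouse left out (2 without βPrlR+/- mouse 4, 4 without βPrlR+/- mouse 2, 5 without βPrlR+/- mouse 1, Prlr+/- mouse 1 or Prlr+/- mouse 2); the cause was not tested. The sign of SLC16A10 turned in deposited TPM without scaling, to -0.11, where the median over all genes moved to -0.118, and with a mouse left out it ranged from -0.17 to 0.18 (-0.17 without Prlr+/- mouse 2). THRA ranged from -0.20 to 0.0068 and THRSP from -0.29 to 0.0192 with a mouse left out, in both cases turning without Prlr+/- mouse 2, and in deposited TPM without scaling they were -0.27 and -0.30. No paired analysis was possible because the numbers of the mice only name them and pair none across the groups. The depth behind these TPM is unknown, which limits what DIO2, DIO3 and SLCO1C1 can show.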
